A study of Mus musculus with 6 samples.

Results

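Protocadherins are cell surface adhesion proteins of the cadherin superfamily, and 69 of the 19306 genes with expression values in mouse dorsal root ganglion (DRG) were protocadherins. They were taken as every gene whose symbol starts with Pcdh and that holds values in all 6 libraries. By symbol they fell into 14 Pcdha genes, 22 Pcdhb genes, 21 Pcdhg genes and 12 genes outside these families. The LAS group and the sham group were wild type C57BL/6 mice, and the study used animals of 6 to 8 weeks and both sexes. In LAS mice, a model of lateral ankle sprain, the anterior talofibular and calcaneofibular ligaments were cut. In sham mice the skin was opened and both ligaments were left whole. Ipsilateral L3-5 DRG, which hold the sensory neurons of the affected hind limb, were taken on day 14, giving 3 LAS and 3 sham libraries. Which sex and how many mice stand behind each library was not given in the sources used here, so p-values measure only how these libraries spread.

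The Pcdha, Pcdhb and Pcdhg genes lie side by side as clusters on chromosome 18. In neurons, each variable exon of Pcdha and Pcdhg has its own promoter and is spliced to constant exons that its whole cluster shares, while Pcdhb genes have no constant exons. Most variable promoters are chosen at random in each neuron, so that single cells carry different sets of isoforms, and the proteins bind the same isoform on the facing membrane. The last isoforms of the Pcdha and Pcdhg clusters, called C-type, are expressed without this random choice in many neurons. In a tissue sample these differences between cells are averaged, and fewer cells of a type cannot be told apart from less RNA per cell. Protocadherins outside the clusters are separate genes, of which the delta1 and delta2 groups are widely expressed in the nervous system.

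Values are FPKM, a level scaled to gene length and to the mapped fragments of the library, as the authors deposited them. The DRG identity of the libraries was checked first. The summed FPKM of 8 sensory neuron markers lay between 8229 and 8514 in LAS libraries and between 8161 and 8637 in sham libraries, while 6 spinal cord glia markers together reached 2.78 to 5.07 FPKM in LAS and 3.85 to 4.45 FPKM in sham libraries. Sham replicate 3 stood apart. Its summed skeletal muscle markers were at 1730 FPKM and its neutrophil markers at 1890 FPKM, against at most 213 and 375 FPKM in any other library. LAS replicate 2 held 1110 FPKM of leptomeningeal markers, against at most 250 FPKM elsewhere. All 6 skeletal muscle and all 6 neutrophil markers were highest in sham replicate 3. All 7 tested leptomeningeal markers were highest in LAS replicate 2 and had a positive log2 difference between LAS and sham. Only 1 of these 7 was higher in LAS without overlap, against 5.89% of all genes tested. The part of these transcripts in the values below was not tested.

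Genes of all 3 clusters were detected, and in Pcdha the C-type genes carried most of the transcript. Pcdhac2 and Pcdhac1, the C-type genes of Pcdha, together took 68.2% to 69.0% of the summed Pcdha FPKM in LAS and 66.4% to 68.6% in sham libraries. Pcdhac2, which in mouse serotonergic neurons is needed for axons to spread evenly, was the highest protocadherin. It was at 36.57, 36.71 and 34.73 FPKM in LAS libraries, against 36.96, 36.64 and 32.39 FPKM in sham libraries. These ranges overlapped, with a log2 difference of 0.03 (95% interval -0.13 to 0.19). Pcdhac1 was at 15.30, 14.19 and 13.28 FPKM in LAS and at 13.43, 15.58 and 12.47 FPKM in sham libraries, again with overlap. The other 12 Pcdha genes averaged between 0.0617 FPKM for Pcdha8 and 4.06 FPKM for Pcdha12.

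**Figure D1:**
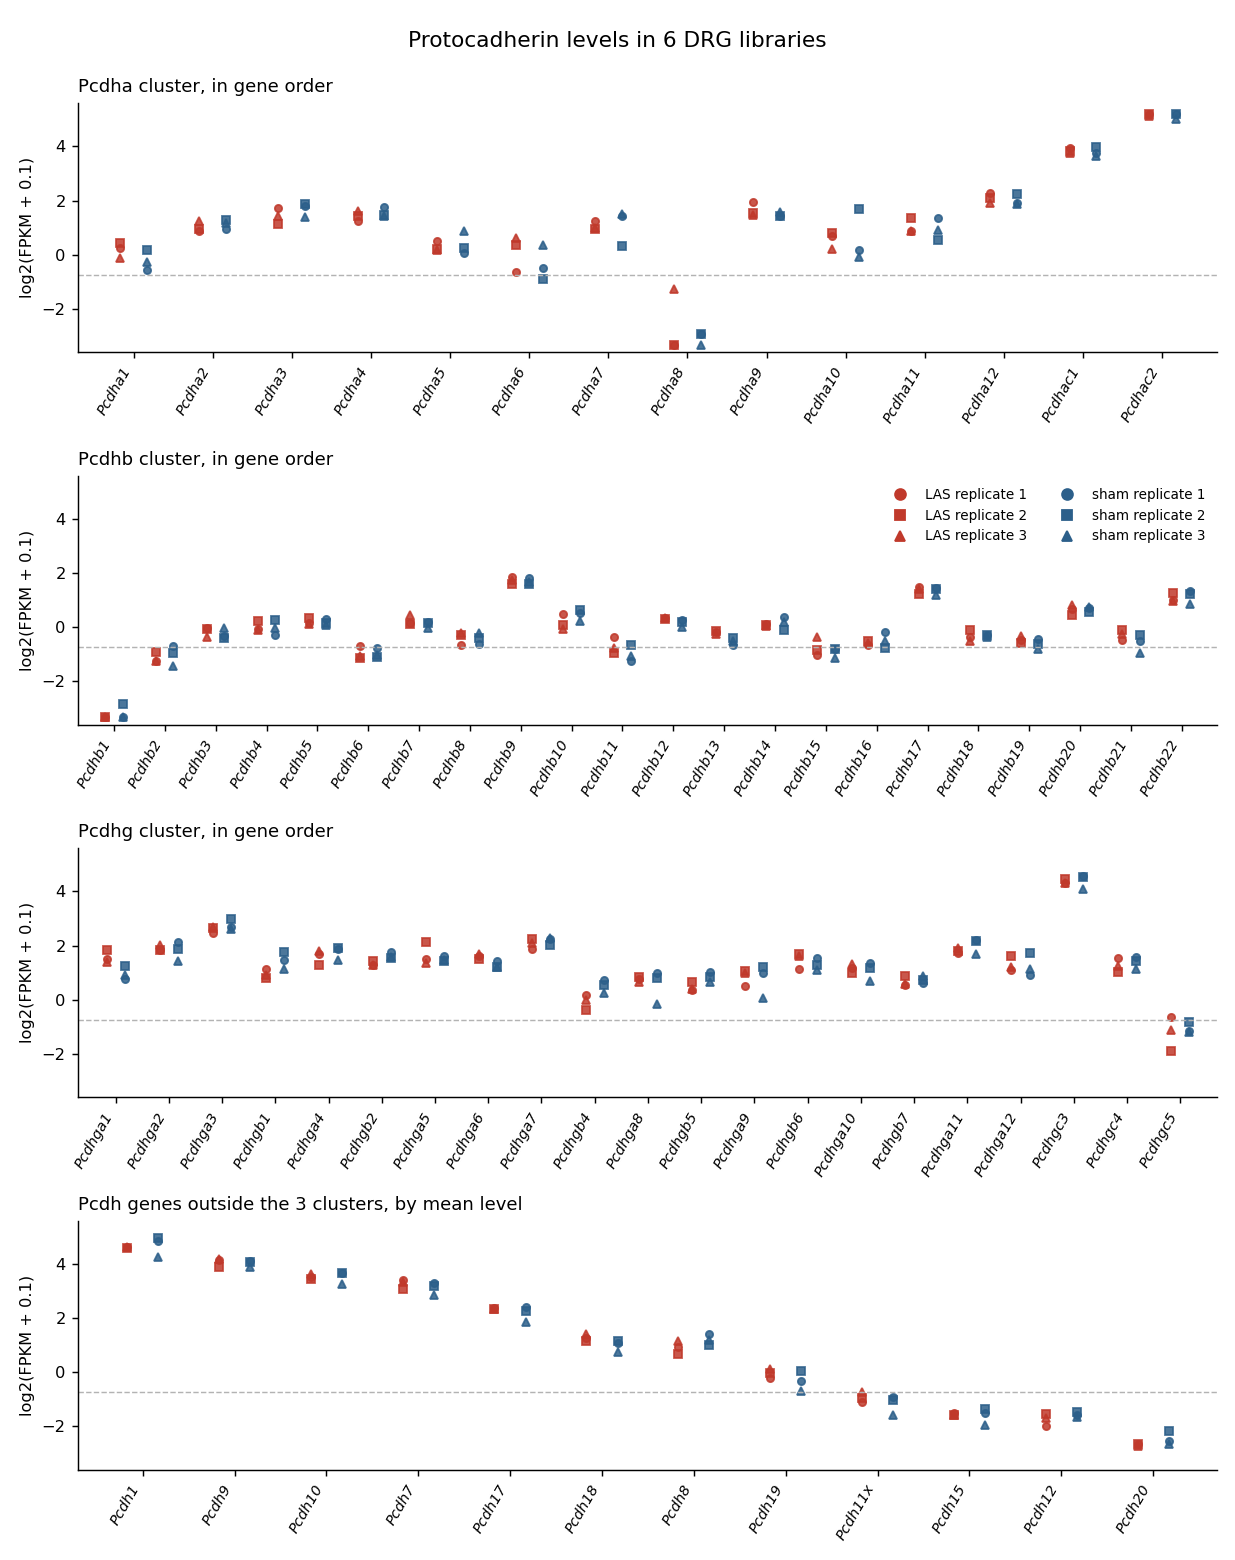
Level of each of the 69 protocadherins in every library, as log2(FPKM + 0.1), with LAS libraries in red left of sham libraries in blue, marker shapes giving the replicate and the dashed line marking 0.5 FPKM. Pcdhac1, Pcdhac2 and Pcdhgc3 stand above the rest of their clusters, with means of 14.0, 35.7 and 20.8 FPKM over all 6 libraries, and the Pcdhb genes reach at most a mean of 3.19 FPKM.

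Among Pcdhg genes the C-type member Pcdhgc3, which in mouse cortical neurons promotes dendrite branching, was highest. Its values were 19.68, 21.85 and 19.57 FPKM in LAS libraries, against 23.41, 23.19 and 17.08 FPKM in sham libraries. The LAS values lay between those of sham replicate 3 and the other sham libraries. Pcdhgc4, the isoform on which the survival of cortical interneurons depends in mice, was at 2.82, 1.95 and 2.26 FPKM in LAS and at 2.91, 2.61 and 2.09 FPKM in sham libraries. Pcdhgc5 was at 0.17 to 0.54 FPKM in LAS and 0.34 to 0.46 FPKM in sham libraries, too low to be tested. C-type genes took between 31.6% and 34.2% of the Pcdhg sum in LAS libraries, against 31.4% to 33.9% in sham libraries. Pcdhga3 led the other 18 Pcdhg genes with a mean of 6.37 FPKM, and Pcdhgb4 was lowest of them with 1.10 FPKM. Pcdhga7 was the next after Pcdhga3, at 3.52, 4.59 and 4.19 FPKM in LAS and at 4.63, 3.91 and 4.74 FPKM in sham libraries (log2 difference -0.11, SE 0.13).

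The Pcdhb genes, each a complete adhesion protein without the shared constant part, were the lowest family per gene. Their median mean level was 0.739 FPKM, against 2.05 FPKM for Pcdha, 2.44 FPKM for Pcdhg and 2.07 FPKM for the 12 genes outside the clusters. Pcdhb9 was highest, at 3.52, 2.94 and 3.28 FPKM in LAS and at 3.41, 2.90 and 3.07 FPKM in sham libraries. Pcdhb17 and Pcdhb22 followed with means of 2.48 and 2.08 FPKM. The order among these levels rests on FPKM, which divides by the gene length the authors used, and that length is not given in the sources used here. This matters within Pcdha and Pcdhg. In the GENCODE M21 annotation the longest coding transcripts of 13 Pcdha genes share 2860 bases with another member, 48.6% to 54.9% of their length, and those of the 21 Pcdhg genes share 2116 to 2119 bases, 41.7% to 45.5%. Reads from shared exons cannot be assigned to 1 isoform, and how the authors counted them is not given, so single Pcdha and Pcdhg values are uncertain to that extent. Pcdhb genes shared at most 9.7% of their length, and genes outside the clusters shared none.

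The sums of the 4 families did not separate LAS from sham libraries. Summed Pcdha FPKM was 76.07, 73.81 and 70.27 in LAS and 73.41, 76.21 and 67.52 in sham libraries. For Pcdhb the sums were 22.43, 21.89 and 22.01 in LAS and 22.87, 21.77 and 20.10 in sham libraries. The LAS sums of both families lay within the range of the sham sums. Summed Pcdhg FPKM was 67.37, 74.18 and 70.33 in LAS and 78.77, 78.92 and 62.07 in sham libraries. The 12 genes outside the clusters summed to 74.83, 68.63 and 76.21 FPKM in LAS and to 79.51, 79.96 and 58.69 FPKM in sham libraries. In both of these families all 3 LAS sums were above sham replicate 3 and below the other sham libraries. Without sham replicate 3, the log2 ratio of LAS over sham was -0.16 for Pcdhg and -0.12 for genes outside the clusters, and with it -0.05 and 0.01.

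**Figure D2:**
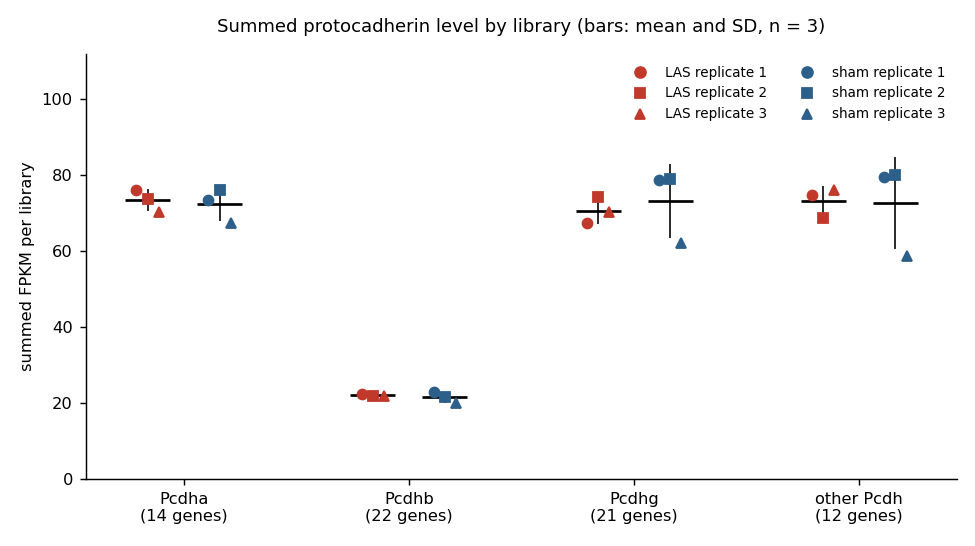
Summed FPKM of the 4 protocadherin families in each library, LAS in red left of sham in blue, with horizontal bars at the mean and vertical bars of 1 SD (n = 3). In Pcdhg and the genes outside the clusters, sham replicate 3 lies lowest, at 62.07 and 58.69, and the other sham libraries lie above every LAS library.

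To compare LAS with sham gene by gene, log2(FPKM + 0.1) was tested with limma over all 14006 genes that reached 0.5 FPKM in 3 or more libraries. The added 0.1 shrinks differences of genes with low values. Of the 69 protocadherins, 58 passed this filter, and none passed through 1 group only. A gene was called where its p, adjusted by Benjamini and Hochberg's method over all genes tested, did not exceed 0.05 and its fold was 1.5 or more. None of the 58 was called, and the background share was 0% of all genes tested. The smallest adjusted p of a protocadherin was 1.00 from limma. Of the 58, 34 had a positive and 24 a negative log2 difference, with a median of 0.03, against a median of 0.00426 over all genes tested. The 95% interval lay within a fold of 1.5 in both directions for 33 of the 58 genes and reached beyond it for the other 25. For those 25 genes these libraries are not precise enough to exclude a difference of that size.

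At an unadjusted p of at most 0.05 from limma, 6 of 58 protocadherins (10.3%) were found, against 3.53% of all genes tested. All 6 were Pcdhg genes. With libraries rescaled to the same sum the shares were 3.45% of protocadherins and 3.03% of all genes, and without LAS replicate 3 they were 1.72% and 2.06%, so the higher share depends on the scaling and on single libraries. The LAS and sham ranges did not overlap for 4 genes higher in LAS (6.90%, background 5.89%) and for 2 lower in LAS (3.45%, background 3.81%), which is close to the background in both directions. The 4 higher ones were Pcdhga1, Pcdhga6, Pcdhb12 and Pcdhb13, and the 2 lower ones were Pcdhgb2 and Pcdhgb4. By family there were 7 positive and 6 negative differences among 13 tested Pcdha genes (median 0.03), 12 and 5 among 17 Pcdhb genes (median 0.03), 9 and 11 among 20 Pcdhg genes (median -0.07), and 6 and 2 among 8 genes outside the clusters (median 0.10).

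**Figure D3:**
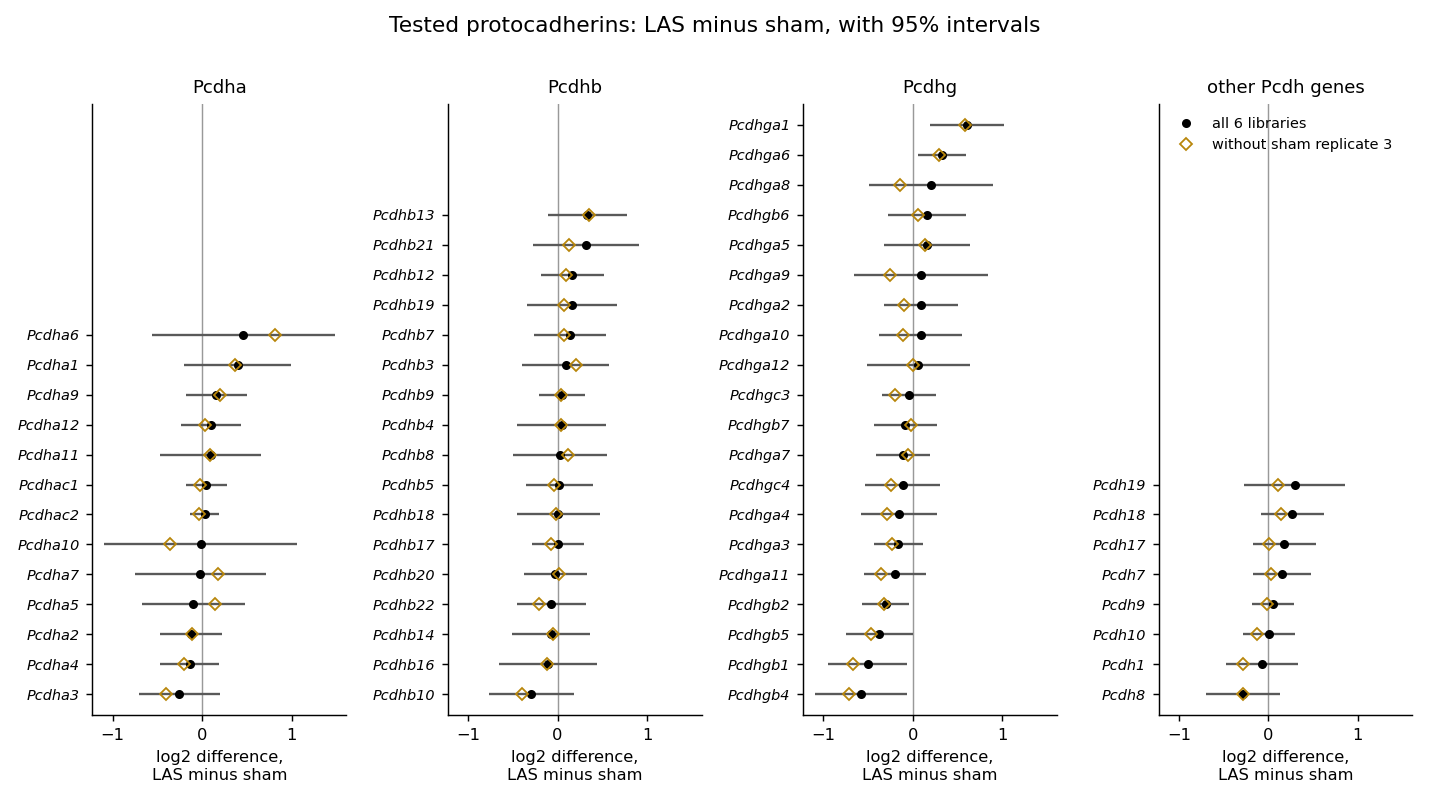
Log2 difference between LAS and sham for the 58 tested protocadherins, with lines for the 95% interval from limma over 6 libraries and open diamonds for the value without sham replicate 3. The intervals of 6 Pcdhg genes exclude 0 before adjustment, and Pcdhga1 at 0.60 and Pcdhgb4 at -0.58 lie furthest from 0 among them.

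The 6 Pcdhg genes differed in direction by subfamily. Mouse Pcdhg has variable exons of types A and B, which alternate along much of the cluster. Pcdhga1, the first gene of the cluster, was at 2.70, 3.51 and 2.52 FPKM in LAS libraries, against 1.59, 2.25 and 1.80 FPKM in sham libraries. Every LAS value was above every sham value, with a log2 difference of 0.60 (SE 0.18, adjusted p = 1.00 from limma). Pcdhga6 was at 2.93, 2.73 and 3.08 FPKM in LAS and at 2.57, 2.18 and 2.18 FPKM in sham libraries, a log2 difference of 0.32 (SE 0.11). Its LAS values were likewise all above its sham values.

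The other 4 genes were of type B, and all were lower in LAS, at unadjusted p only. They are named here after their values were seen. Pcdhgb2 was at 2.32, 2.57 and 2.34 FPKM in LAS and at 3.33, 2.77 and 2.91 FPKM in sham libraries (log2 difference -0.30, SE 0.11). Pcdhgb4 was at 1.04, 0.66 and 0.88 FPKM in LAS and at 1.57, 1.34 and 1.08 FPKM in sham libraries (log2 difference -0.58, SE 0.22). For both genes the highest LAS library was below the lowest sham library. Pcdhgb1 was at 2.08, 1.62 and 1.79 FPKM in LAS and at 2.66, 3.29 and 2.07 FPKM in sham libraries (log2 difference -0.51, SE 0.19). Pcdhgb5 was at 1.18, 1.49 and 1.20 FPKM in LAS and at 1.92, 1.70 and 1.49 FPKM in sham libraries (log2 difference -0.38, SE 0.16). Their ranges met or overlapped at sham replicate 3. The remaining type B genes, Pcdhgb6 and Pcdhgb7, had log2 differences of 0.15 and -0.08 with overlapping ranges.

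Summed over all 6 type B genes, LAS libraries held 10.05, 11.15 and 10.56 FPKM, against 13.74, 13.00 and 11.35 FPKM in sham libraries. As a share of the Pcdhg sum of the same library, type B took 14.9%, 15.0% and 15.0% in LAS and 17.4%, 16.5% and 18.3% in sham libraries. Sham replicate 3 had the lowest Pcdhg sum and the highest type B share, so the share and the sum order the sham libraries differently. The type A share of the Pcdhg sum ran from 50.9% to 53.4% for LAS, and for sham from 48.7% to 50.3%. Type A, type B and C-type shares are parts of the same sum, so the type A share is not independent of the type B share. Summed type A FPKM itself overlapped between the groups. It was 34.28, 39.06 and 37.58 for LAS, and 38.36, 39.66 and 31.21 for sham. Over 6 libraries, 8 type A log2 differences were positive and 4 negative (median 0.09). Leaving out sham replicate 3 turned this to 3 positive and 9 negative (median -0.11). The split of the shares by type was noticed in these values and has no test of its own. The type A genes that lie beside Pcdhgb1 and Pcdhgb2 in the cluster, Pcdhga3, Pcdhga4 and Pcdhga5, had log2 differences of -0.16, -0.16 and 0.15. Beside Pcdhgb4 and Pcdhgb5 lie Pcdhga7, Pcdhga8 and Pcdhga9, with log2 differences of -0.11, 0.21 and 0.09. The intervals of all these type A genes include 0.

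**Figure D4:**
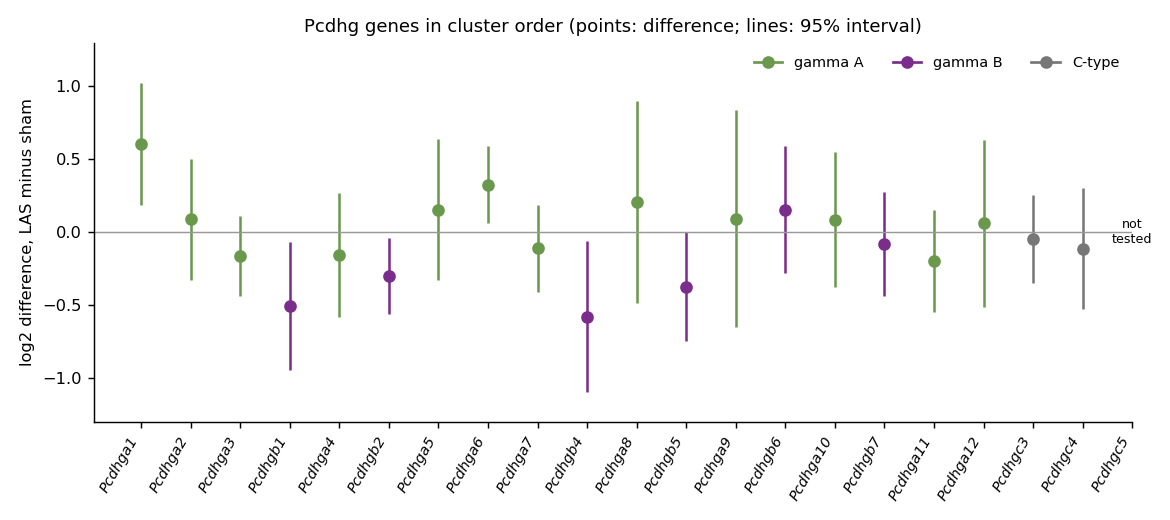
Log2 difference between LAS and sham for the Pcdhg genes in their order along the cluster, with lines for the 95% interval from limma (n = 3 each) and colours for types A, B and C. The intervals of 4 of the 6 type B genes lie below 0 before adjustment, those of Pcdhga1 and Pcdhga6 lie above it, and Pcdhgc5 was not tested.

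In the Pcdha cluster, Pcdha1 and Pcdha3 had the smallest p, and both missed the threshold even unadjusted. Pcdha1 was at 0.81 to 1.24 FPKM in LAS and 0.58 to 1.02 FPKM in sham libraries (log2 difference 0.40, SE 0.25). Pcdha3 was at 2.12 to 3.24 FPKM in LAS and 2.54 to 3.57 FPKM in sham libraries (log2 difference -0.25, SE 0.19). The Pcdha genes other than the C-type ones varied most among libraries of the same group, with a median residual SD of 0.33 on the log2 scale, against 0.21 over all tested protocadherins and 0.12 over all genes tested. These groups of genes were not matched for level, on which the SD can depend. Pcdha10 is an example of the spread, at 1.07 to 1.64 FPKM in LAS libraries. Its value was 3.12 FPKM in sham replicate 2 and 1.03 and 0.83 FPKM in the other sham libraries. In the Pcdhb cluster, Pcdhb13 was at 0.73 to 0.81 FPKM in LAS and 0.53 to 0.65 FPKM in sham libraries. Its ranges were apart, and its log2 difference of 0.33 (SE 0.19) did not pass at an unadjusted p of 0.05. Pcdhb12, named after its values were seen, was at 1.12 to 1.18 FPKM in LAS and 0.90 to 1.11 FPKM in sham libraries. Pcdhb10 ran the other way, at 0.86 to 1.29 FPKM in LAS and 1.08 to 1.45 FPKM in sham libraries (log2 difference -0.29, SE 0.20).

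Outside the clusters, delta1 and delta2 protocadherins made up nearly all of the transcript. The delta1 gene Pcdh1, an adhesion molecule also known from airway epithelium, was at 24.47, 24.27 and 24.29 FPKM in LAS libraries, against 28.48, 30.88 and 18.92 FPKM in sham libraries. The LAS libraries agreed closely, and the sham libraries lay on both sides of them. Pcdh9, another delta1 gene, was at 17.82, 14.71 and 17.85 FPKM in LAS and at 17.24, 16.65 and 14.67 FPKM in sham libraries. Pcdh7, which guides retinal axons in Xenopus under the name NF-protocadherin, was at 10.50, 8.32 and 10.05 FPKM in LAS and at 9.80, 8.98 and 7.21 FPKM in sham libraries. Both overlapped between the groups, with log2 differences of 0.05 (95% interval -0.19 to 0.29) for Pcdh9 and 0.15 (95% interval -0.17 to 0.48) for Pcdh7.

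The delta2 proteins can bind the WAVE complex, which drives actin branching at the membrane. Pcdh10, which in mice is needed for the growth of striatal axons, was the highest of them, at 11.27, 10.91 and 12.36 FPKM in LAS and at 12.48, 12.68 and 9.46 FPKM in sham libraries. Pcdh17 was at 5.07, 4.99 and 5.00 FPKM in LAS and at 5.23, 4.75 and 3.48 FPKM in sham libraries. In both, sham replicate 3 was lowest and the groups overlapped. Pcdh18 was at 2.28, 2.11 and 2.54 FPKM in LAS and at 2.02, 2.14 and 1.57 FPKM in sham libraries (log2 difference 0.27, SE 0.15). Pcdh8, known in rat hippocampus as the activity-induced arcadlin, was at 1.82, 1.49 and 2.15 FPKM in LAS and at 2.58, 1.90 and 2.20 FPKM in sham libraries (log2 difference -0.28, SE 0.17). Pcdh19, mutated in a human epilepsy, was at 0.77, 0.88 and 0.98 FPKM in LAS and at 0.70, 0.92 and 0.51 FPKM in sham libraries. None of these delta2 genes separated the groups.

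The RefSeq promoter table (build GRCm38.p6, 250 bases before to 50 after a start site) held 10 promoters of 9 of the 69 protocadherins, all outside the clusters. A pair of them is shown, that of Pcdh10 as the highest delta2 gene and that of Pcdh20 as the promoter with the fewest CpG among these members. CG pairs were counted on the printed strand, 5′ to 3′, and are in capitals. The first, of Pcdh10, is at chr3:45378148-45378447 on the plus strand, and the second, of Pcdh20, at chr14:88471347-88471646 on the minus strand.
Pcdh10: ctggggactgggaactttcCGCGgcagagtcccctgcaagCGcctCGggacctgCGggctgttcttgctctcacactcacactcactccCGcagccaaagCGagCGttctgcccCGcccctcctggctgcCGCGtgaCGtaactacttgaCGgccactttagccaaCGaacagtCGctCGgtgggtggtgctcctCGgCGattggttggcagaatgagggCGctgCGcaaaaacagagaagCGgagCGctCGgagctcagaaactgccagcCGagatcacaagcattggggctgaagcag
Pcdh20: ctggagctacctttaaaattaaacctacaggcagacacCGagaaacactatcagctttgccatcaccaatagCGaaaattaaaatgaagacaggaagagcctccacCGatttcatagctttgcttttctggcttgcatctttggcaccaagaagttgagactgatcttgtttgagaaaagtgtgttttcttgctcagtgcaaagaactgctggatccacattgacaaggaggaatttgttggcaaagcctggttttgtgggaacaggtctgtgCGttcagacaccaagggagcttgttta
The Pcdh10 promoter held 24 CG pairs, and 20.0% of the 32851 promoters in the table held at least as many. The Pcdh20 promoter held 4, a count that 68.6% of promoters reached, and the median promoter held 7. Pcdh10 averaged 11.5 FPKM over the 6 libraries and Pcdh20 0.07 FPKM. Of the others, Pcdh17 held 26, Pcdh18 23, Pcdh9 19 and 18 at its start sites, Pcdh19 18, Pcdh8 14, Pcdh7 11 and Pcdh15 8. The genes with the fewest, Pcdh15 and Pcdh20, were also those of the 9 that missed the expression filter. Above it the count did not follow the level, since Pcdh19 with 18 was at 0.793 FPKM and Pcdh7 with 11 at 9.14 FPKM. Over 9 genes this is a description with no test.

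The 11 protocadherins under the filter were low in both groups. Pcdh15, the tip link protein of inner ear hair cells, was at 0.23 to 0.25 FPKM in LAS and 0.16 to 0.29 FPKM in sham libraries. Pcdh12, known from endothelial cells, was at 0.15 to 0.24 FPKM in LAS and 0.22 to 0.26 FPKM in sham libraries, and the delta1 gene Pcdh11x at 0.37 to 0.50 FPKM in LAS and 0.23 to 0.43 FPKM in sham libraries. Pcdh20 did not exceed 0.12 FPKM. Pcdha8 was listed at 0 in LAS replicates 1 and 2 and at 0.31 FPKM in LAS replicate 3, against 0.03, 0.03 and 0 FPKM in sham libraries. Pcdhb1 was listed at 0 in every library except sham replicate 2, at 0.04 FPKM. The rest were Pcdhgc5, given above, and Pcdhb2, Pcdhb6, Pcdhb11 and Pcdhb15, whose means lay between 0.377 and 0.468 FPKM.

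The direction of several of these differences changed when sham replicate 3 was left out. It held the lowest value of 25 of the 58 tested protocadherins (43.1%), against 25.0% of all genes tested, and the highest value of 5 (8.62%), against 33.4%. Among genes outside the clusters it was lowest in 7 of 8, the exception being Pcdh8. Without it, 25 of the 58 differences were positive and 33 negative, and 16 of the 20 Pcdhg differences were negative with a median of -0.17. The genes outside the clusters then had 4 positive and 4 negative differences and a median of -0.0042. At an unadjusted p of at most 0.05 from limma, 2 genes (3.45%, background 6.45%) were then higher in LAS and 7 (12.1%, background 3.72%) lower. The groups did not overlap for 5 genes higher in LAS (8.62%, background 17.6%) and 12 lower in LAS (20.7%, background 11.3%), of which 8 were Pcdhg genes. None was called, and the background share called was again 0%. Pcdh1 had the smallest adjusted p of the 58 in these 5 libraries, 0.266 from limma, with a log2 difference of -0.28 (SE 0.05), against -0.07 over 6 libraries. Pcdhgc3 moved likewise to -0.20 without that library, against -0.05 with it. Without sham replicate 3 the difference was 0.58 for Pcdhga1 and 0.29 for Pcdhga6, against 0.60 and 0.32 with it. For the 4 named type B genes it was then -0.67 for Pcdhgb1, -0.32 for Pcdhgb2, -0.71 for Pcdhgb4 and -0.46 for Pcdhgb5.

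Genes that act on protocadherin promoters or below the proteins were also read from the same fit. Of 19 regulators of promoter choice in the clusters, among them Ctcf, the cohesin subunits and DNA methyltransferases, 18 were tested. None was called and none reached an unadjusted p of 0.05 in limma, with 10 positive and 8 negative differences. Of all genes tested, 0% were called and 3.53% reached that p. Ctcf, which joins the chosen promoters to their enhancers, averaged 11.1 ± 0.567 FPKM in LAS and 11.1 ± 0.580 FPKM in sham libraries (SD, n = 3 each). Dnmt1, the maintenance DNA methyltransferase, was at 8.09 to 8.48 FPKM in LAS and 8.75 to 9.98 FPKM in sham libraries (log2 difference -0.14, SE 0.08). Its ranges were apart, and its difference was below a fold of 1.5 at both ends of its 95% interval. The ranges of Smc3 were apart too, at 9.71 to 10.24 FPKM in LAS and 10.29 to 10.67 FPKM in sham libraries. So 2 of the 18 tested regulators were lower in LAS without overlap and 0 were higher. The background shares were 3.81% and 5.89%. Trim28, a corepressor, averaged 22.8 ± 0.709 FPKM in LAS and 24.4 ± 1.37 FPKM in sham libraries (SD, n = 3 each). Of 20 WAVE complex genes and kinase partners, none was called and none reached an unadjusted p of 0.05, with 10 differences in each direction. Marcks, an actin-binding substrate of protein kinase C, was at 7.88 to 8.35 FPKM in LAS and 6.79 to 7.87 FPKM in sham libraries. Ptk2b, the kinase Pyk2 that binds and is inhibited by clustered protocadherins, averaged 12.7 ± 0.756 FPKM in LAS and 14.3 ± 1.49 FPKM in sham libraries (SD, n = 3 each).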

How the data were processed

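RNA of ipsilateral DRG was measured in 3 LAS and 3 sham libraries on day 14. The authors sequenced on a BGISEQ-500, aligned to the mouse genome and deposited FPKM per gene. These values carry no read counts, so no counting interval is given. For aligner, counter, build and annotation, nothing is given in the sources used here. The table also holds the authors' log2 fold change, p-value and q-value columns, which were not used.

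Groups were read from the sample labels. LAS and sham were compared on log2(FPKM + 0.1) by limma 3.58.1 (R 4.3.3), unpaired and with a trend of variance on level, over 14006 genes that reached 0.5 FPKM in 3 or more libraries, with Benjamini-Hochberg adjustment over all of them. The test was checked on simulated data. The exact permutation test of 3 against 3 libraries cannot give less than 0.10 and was not used. Sums and shares have no test. Promoters and the gene order in the clusters came from RefSeq, where all 69 members matched by gene ID. Shared exons came from GENCODE M21, matched by symbol.

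Members and gene lists were chosen with earlier results of these data known. Genes named are, per family, the 3 highest and the 2 with the smallest p, all C-type isoforms, all tested genes outside the clusters, and the 2 with the smallest p in each related list. Others are named for a count or an example after their values were seen. Alternatives covered pseudocount, filter, scaling, variance trend, a replicate block and leaving out each library.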

Additional observations from a re-analysis of the deposited data

How the results depend on the processing

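No gene was called in any of the 16 alternative fits with limma. The protocadherins at an unadjusted p of at most 0.05 numbered 6 over all 6 libraries (10.3%, against 3.53% of all genes), 2 with libraries rescaled to the same sum (3.45% against 3.03%), 4 with a replicate block (6.90% against 2.29%, or 321 genes) and 5 to 7 in the other fits over 6 libraries. With 1 library left out they numbered 1 to 9, from 1.72% against 2.06% without LAS replicate 3 to 15.5% against 10.2% without sham replicate 3, and the shares were 3.45% against 3.41% without sham replicate 1. The deviations of same-numbered libraries correlated at -0.41, 0.24 and -0.15, and those of other pairs between -0.29 and 0.43. These values show no pairing by replicate number, but with 3 libraries per group they cannot exclude it. The block called 0 genes, as did the unpaired fit. With 1 library left out, the median ranged between -0.0041 and 0.0973 for Pcdha, 0.0177 and 0.0505 for Pcdhb, -0.1695 and -0.0122 for Pcdhg, and -0.0042 and 0.1727 for the genes outside the clusters. Of 36 named genes, 10 changed sign under some alternative. Their log2 differences with 1 library left out were -0.0319 to 0.063 for Pcdhac2, -0.0232 to 0.1363 for Pcdhac1, -0.0064 to 0.1195 for Pcdhb9, -0.0757 to 0.0795 for Pcdhb17, -0.2072 to 0.0321 for Pcdhb22, -0.1951 to 0.0312 for Pcdhgc3, -0.2491 to 0.006 for Pcdhgc4, -0.2837 to 0.0682 for Pcdh1, -0.0184 to 0.1425 for Pcdh9 and -0.1287 to 0.0807 for Pcdh10. Pcdhb17 was at -0.0011 when libraries were centred on the median gene and at -0.0039 when centred on sensory neuron markers, where Pcdh10 was at -0.0009. The last scaling was chosen after seeing the data. The causes were not tested.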

Other observations

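The rest of the cadherin superfamily was read from the same fit. Of 25 classical and type II cadherins and catenins, 24 were tested, with 13 positive and 11 negative log2 differences between LAS and sham and a median of 0.01. None was called, and the background share was 0%. Of all genes tested, 3.53% had an unadjusted p of at most 0.05 in limma, and 1 of these 24 did. That 1 was Cdh15, or M-cadherin, a cadherin of muscle precursor cells. It was at 2.63, 2.38 and 2.74 FPKM in LAS libraries, against 3.49, 3.89 and 4.16 FPKM in sham libraries. Every LAS value was below every sham value (log2 difference -0.56, SE 0.11, adjusted p = 1.00 from limma). Sham replicate 3, which held most skeletal muscle transcript, had the highest Cdh15 value, and without it the log2 difference was -0.50. Summed skeletal muscle markers were at 213, 83.1 and 28.5 FPKM in LAS and at 26.2, 198 and 1730 FPKM in sham libraries. Within the sham group Cdh15 rose with this sum. Sham replicate 1 had a lower sum than every LAS library and a higher Cdh15 value. Whether Cdh15 follows muscle transcript was not tested. The satellite glia marker Fabp7, a fatty acid binding protein of glia, was also lower in every LAS library, at 68.3 to 80.8 FPKM in LAS and 116 to 156 FPKM in sham libraries (log2 difference -0.77, SE 0.13, adjusted p = 1.00 from limma). The other 4 satellite glia markers did not share a difference of that size. Their log2 differences were -0.10 for Apoe, -0.05 for Kcnj10, 0.06 for Cdh19 and 0.07 for Glul. Apoe was also lower in every LAS library, at 2279 to 2420 FPKM in LAS and 2446 to 2612 FPKM in sham libraries. Thus 2 of the 5 markers were lower in LAS without overlap, against 3.81% of all genes tested. Fabp7 is named after its values were seen. Whether these differences belong together was not tested.

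Of 12 FAT, dachsous, flamingo and calsyntenin cadherins, 10 were tested. None was called or reached an unadjusted p of 0.05 in limma, against 0% and 3.53% of all genes tested. Clstn3, a synaptic calsyntenin, averaged 22.8 ± 3.30 FPKM in LAS and 26.1 ± 1.92 FPKM in sham libraries (SD, n = 3 each). Fat3, which shapes dendrites of retinal amacrine cells in mice, averaged 2.60 ± 0.168 FPKM in LAS and 2.36 ± 0.198 FPKM in sham libraries (SD, n = 3 each). Cdh10, a type II cadherin, was at 3.58 to 4.08 FPKM in LAS and 4.14 to 4.69 FPKM in sham libraries, without overlap. Of the 24 tested classical and type II cadherins and catenins, 2 were lower and 1 higher in LAS without overlap. The background shares were 3.81% and 5.89%.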
